A study of Homo sapiens with 16 samples.

Results

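The chromatin of 9 Krüppel-like factor genes was followed in HEK293, an established human embryonic kidney cell line, after a hyperosmotic stress: KLF2, KLF4, KLF5, KLF6, KLF9, KLF10, KLF11, KLF13 and KLF16. A member is any interval of the deposited count table that overlaps 1 of these 9 genes or lies within 10 kb of a transcript start annotated for it in GENCODE release 44. This gave 33 of the 74404 intervals. KLF13 had 7 of them, KLF9 had 5, KLF5, KLF11 and KLF16 had 4 each, KLF4 and KLF6 had 3 each, KLF10 had 2 and KLF2 had 1. All 9 genes had an interval over the start of their canonical transcript or within 1 kb of it, called the start-site interval here.

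The assay was CUT&Tag, in which an antibody brings a Tn5 transposase to its target on the nucleus so that nearby DNA is cut, tagged and sequenced. All cells carried an eGFP-YAP genotype. The antibodies were against CTCF, the zinc-finger protein that bounds chromatin loops; RAD21, a subunit of the cohesin ring; GFP, which reads the tagged YAP (its libraries are called YAP1); and H3K27ac, the histone acetylation of active promoters and enhancers. For each target, 2 libraries came from vehicle cells and 2 from cells given 200 mM sorbitol for 1 h, 16 libraries in 8 groups. The count table marks the vehicle libraries with an earlier time, so time and treatment may differ together. The design text also describes serum starvation before the stress, and whether the eGFP-YAP cells are a single clone is not given in the sources used here. The replicates are numbered in the labels, and nothing says that they came from separate cultures, so p-values measure only the spread between these libraries.

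Krüppel-like factors are transcription factors with zinc fingers at the carboxyl end that bind GC-rich and CACCC sequences. They fall into groups by the cofactors they recruit. KLF2, KLF4, KLF5 and KLF6 belong to a group that includes activators, while KLF9, KLF10, KLF11, KLF13 and KLF16 carry motifs that bind the SIN3A corepressor. Many of these genes are switched on within a short time by serum, growth factors, shear stress, steroid hormones or TGF-beta, which is why they are read as stress-responsive genes. The start regions of most of them are rich in CpG.

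The start regions of 3 genes are printed for their contrast in the main fits. KLF6 changed for all 4 targets, and KLF4 had the largest CTCF gain just inside the gene. KLF5, like KLF2, passed the test for none at its start site. These calls depend on the scaling, and under other scalings KLF5 did pass for CTCF and H3K27ac, as given below. The sequences are from RefSeq's GRCh38 promoter table, run 5′ to 3′ on the gene's strand and hold no annotated exon of these genes. Capitals mark CG dinucleotides.
KLF6, minus strand, chr10:3785282-3785459: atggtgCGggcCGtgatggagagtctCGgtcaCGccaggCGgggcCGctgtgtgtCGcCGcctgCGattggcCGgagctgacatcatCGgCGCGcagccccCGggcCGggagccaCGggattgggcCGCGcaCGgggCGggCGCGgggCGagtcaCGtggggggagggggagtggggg
KLF4, minus strand, chr9:107489770-107490019: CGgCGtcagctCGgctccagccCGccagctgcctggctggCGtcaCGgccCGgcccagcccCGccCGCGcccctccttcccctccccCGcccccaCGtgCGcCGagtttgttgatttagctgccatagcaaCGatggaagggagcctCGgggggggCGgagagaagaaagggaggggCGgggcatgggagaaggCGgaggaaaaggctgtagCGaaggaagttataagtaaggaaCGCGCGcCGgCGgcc
KLF5, plus strand, chr13:73058755-73059004: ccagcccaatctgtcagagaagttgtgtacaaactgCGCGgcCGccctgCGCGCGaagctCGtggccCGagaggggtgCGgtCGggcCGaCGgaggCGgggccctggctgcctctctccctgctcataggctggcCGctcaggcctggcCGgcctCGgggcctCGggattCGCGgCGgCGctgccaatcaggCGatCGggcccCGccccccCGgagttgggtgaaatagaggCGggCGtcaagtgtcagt
The KLF6 stretch is 178 bases long and ends 73 bases before the RefSeq start, with 24 CG dinucleotides and 76.4% G or C. The KLF4 and KLF5 stretches are the 250 bases before the start, with 25 and 27 CG dinucleotides and 69.2% and 70.8% G or C. All 3 stretches are rich in G and C. The KLF6 stretch has the highest share of the 3, and holds its 24 CG dinucleotides in 178 bases, against 250 bases for the others. The KLF4 stretch lies in its start-site interval and not in the interval with the largest CTCF gain. Composition was not tested against the responses.

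The libraries held 1.19 to 8.84 M counts (M, 1e6), with RAD21 the shallowest target. Mitochondrial intervals took 15.7% and 19.9% of the CTCF counts in vehicle and 32.8% and 33.9% in sorbitol. The same share was 36.5% and 38.1% against 55.4% and 57.8% for YAP1, 34.3% and 38.5% against 44.8% and 46% for RAD21, and 1.95% to 2.08% in all H3K27ac libraries. Values below are therefore scaled by TMM over the tested intervals of each target and given as counts per 1e6 (CPM). When total counts were used in place of TMM, the median log2 fold change over all tested intervals was -1.04 in the CTCF fit, -0.60 in that of RAD21, -1.46 with YAP1 and 0.17 with H3K27ac, where the TMM-scaled medians were -0.06, -0.01, -0.04 and 0.02. A rise below is thus a rise relative to the other intervals of the same target. Fewer nuclei that carry a mark and less of it per nucleus cannot be told apart in these counts.

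H3K27ac fell at most KLF start regions. Of the 33 intervals, 32 had enough counts to test; 17 fell, none rose and 15 did not pass. All 17 intervals with an unadjusted p under 0.05 in edgeR were falls, and DESeq2 gave 15 falls and no rise, where it called 13% of all tested intervals (9.81% lower, 3.2% higher). Over all 56601 tested intervals 23.1% were called, 14.5% as lower and 8.59% as higher, against 53.1% of the KLF intervals. The median log2 fold change of the 32 was -0.77, where that of all tested intervals was 0.02. At the start-site intervals 7 of 9 fell, with a median of -0.91; among the start-site intervals of all protein-coding genes 45.0% were called, 31.6% lower and 13.4% higher, with a median of -0.13. At these 9 intervals the SIN3A-binding genes fell in 5 of 5 cases and the KLF2, KLF4, KLF5 and KLF6 group in 2 of 4. With offsets corrected for GC content, the falls of KLF9 and KLF11 did not pass (edgeR adjusted p = 0.058 and 0.24). Those of KLF4 and KLF6 did, so the contrast depends on the processing. This grouping was read after the values were known and was not tested.

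**Figure D1:**
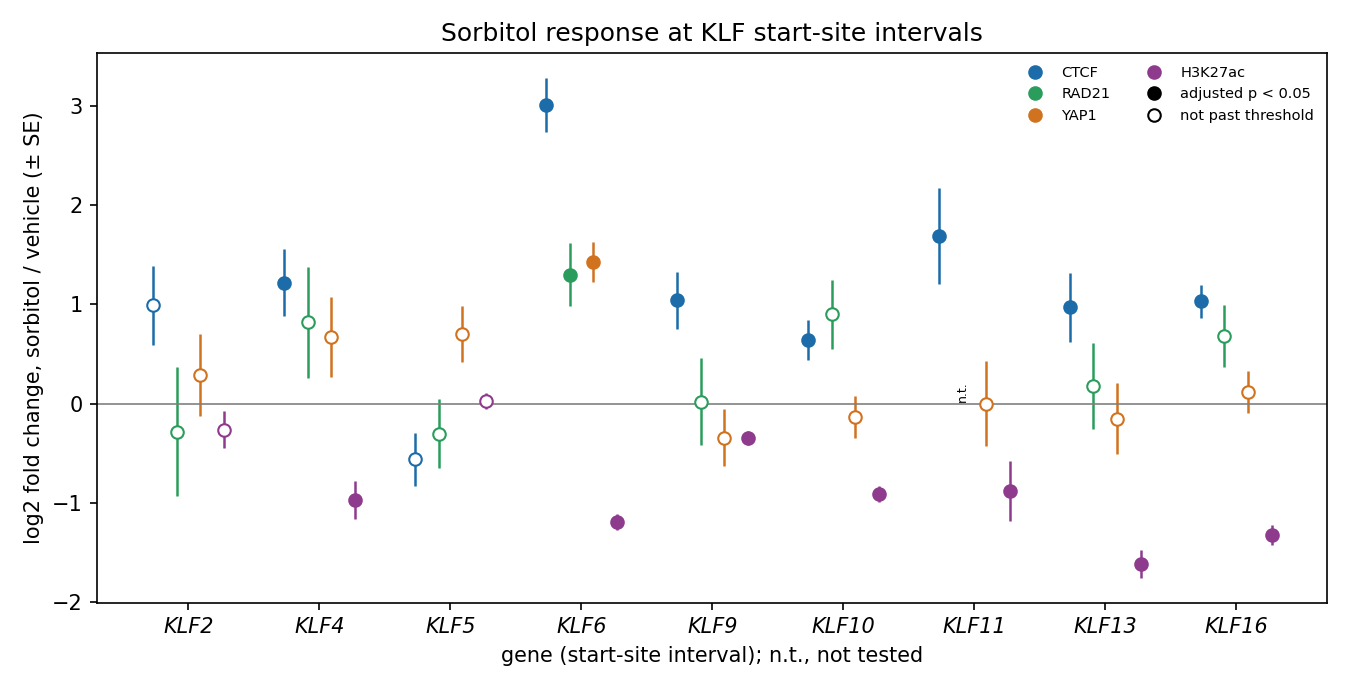
Log2 fold change (sorbitol over vehicle, ± SE from edgeR, 2 libraries per group) at the start-site interval of each gene for CTCF, RAD21, YAP1 and H3K27ac, with filled points past an adjusted p of 0.05. KLF6 has 4 filled points, H3K27ac points are filled and below 0 for 7 genes, and CTCF points are filled and above 0 for 7 genes, of which KLF10 and KLF13 turn below 0 with total-count scaling or GC-corrected offsets and KLF16 with GC-corrected offsets.

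KLF6, an immediate early factor of injury responses and a tumor suppressor, changed for all 4 targets at its start-site interval (chr10:3784726-3786157 of hg38, over untranslated and coding sequence and over the gene ENSG00000288755). The H3K27ac libraries held 109 and 106 CPM with vehicle and 48.1 and 46.3 CPM with sorbitol. Both sorbitol values lay below both vehicle values, a 2.28-fold fall with a log2 fold change of -1.19 ± 0.08 (edgeR adjusted p = 9.8e-14). CTCF went the other way, with 10.9 and 4.02 CPM in vehicle and 61.0 and 67.2 CPM in sorbitol, from raw counts of 70 and 17 and then 118 and 137. The groups did not overlap, and the log2 fold change was 3.01 ± 0.27 (edgeR adjusted p = 1.7e-08). The vehicle libraries differed from each other, and without vehicle replicate 1 the value was 3.96, without vehicle replicate 2 it was 2.55. It was 2.03 with total-count scaling and 2.15 with offsets corrected for GC content, past the threshold in both.

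YAP1 signal at the KLF6 start-site interval was 22.2 and 23.5 CPM in vehicle and 59.6 and 64.3 CPM in sorbitol. This was a log2 fold change of 1.43 ± 0.20 (edgeR adjusted p = 6.6e-05), and the only YAP1 call among the KLF intervals. With total-count scaling it was 0.00, with an adjusted p of 1, so the rise is relative to other YAP1 intervals and was not seen against the library total. RAD21 was 19.4 and 24.8 CPM in vehicle and 50.3 and 56.8 CPM in sorbitol, with a log2 fold change of 1.30 ± 0.32 (edgeR adjusted p = 0.039). That call rested on few counts, 53 and 28 against 51 and 50. It was not kept with DESeq2 (adjusted p = 0.21), GC-corrected offsets (adjusted p = 0.12) or total-count scaling (adjusted p = 0.20), nor without RAD21 vehicle replicate 1 (adjusted p = 0.15).

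**Figure D2:**
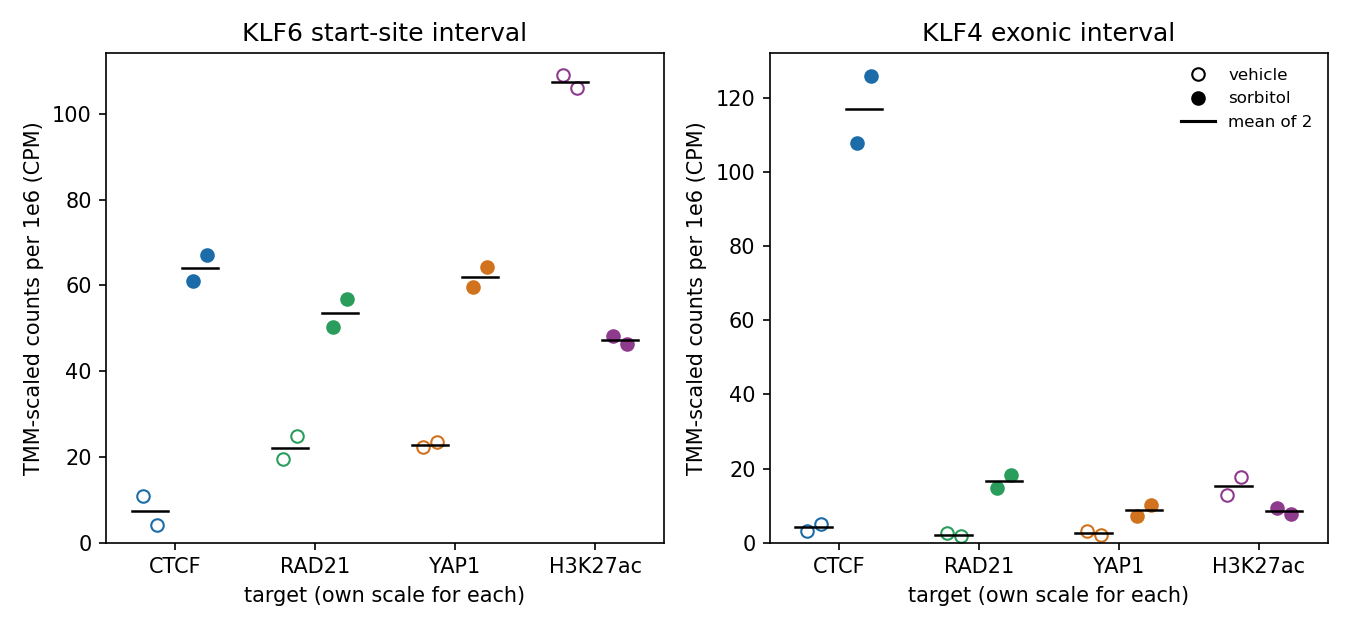
TMM-scaled CPM in each library (open points vehicle, filled points sorbitol, bars the mean of 2) at the KLF6 start-site interval and the KLF4 exonic interval. CTCF goes from 10.9 and 4.02 to 61.0 and 67.2 at KLF6 and from 3.26 and 4.97 to 108 and 126 at KLF4; the scale of each target is its own, and the YAP1 rise at KLF6 is 0.00 on the log2 scale with total-count scaling.

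The make-up of the 9 start sites within each library is given as a description. The counts at the 9 start-site intervals were summed and the share of each gene taken, a measure chosen after the values were seen. Since KLF6 differed from the other members in the fits above, its share had to move with them and is no separate support. The KLF6 share of CTCF counts was 5.75% ± 3.54 in vehicle and 23.7% ± 2.97 in sorbitol (SD, n = 2 here and below). Its share of YAP1 counts was 12.9% ± 0.0707 and then 27.5% ± 0.919, where its own change was 0.00 against the library totals. Its share of RAD21 counts was 12.1% ± 3.30 and then 19.6% ± 1.63, and that of H3K27ac counts 17.6% ± 0.566 and then 12.4% ± 0.566.

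**Figure D3:**
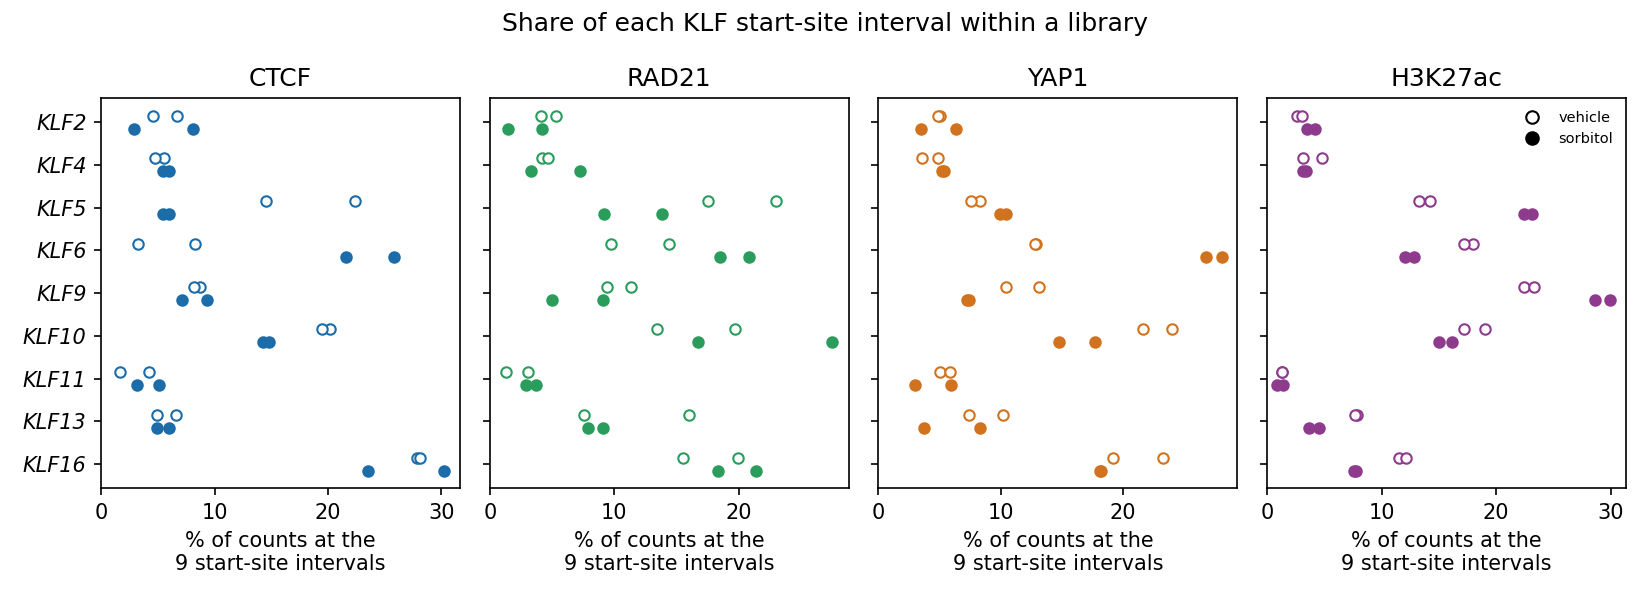
Share (%) of each gene among the counts at the 9 KLF start-site intervals, per library, with open points for vehicle and filled points for sorbitol. The KLF6 share is higher in both sorbitol libraries for CTCF, RAD21 and YAP1 and lower for H3K27ac, while the KLF5 share is lower for CTCF and RAD21 and higher for YAP1 and H3K27ac.

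KLF4, a pluripotency factor that is also induced by shear stress, had 3 intervals that differed in response. The largest CTCF gain among the KLF intervals was at chr9:107487445-107489133, over untranslated and coding exons downstream of the canonical start, called the KLF4 exonic interval here; it also covers ENSG00000289987. The CTCF libraries had 3.26 and 4.97 CPM in vehicle and 108 and 126 CPM in sorbitol, from 21 and 21 counts and then 209 and 257. All sorbitol values lay far above the vehicle values. The log2 fold change was 4.87 ± 0.21, a 29.3-fold rise (edgeR adjusted p = 1.6e-14). It was 3.89 with total-count scaling and 4.08 with GC-corrected offsets.

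This interval is 1 of 3 KLF intervals with a match to the CTCF core consensus (at most 1 mismatch, either strand), which is 9.09% of the members, against 18.4% of all 74404 intervals. The match and 8 bases on either side, with the match in capitals, is shown because it lies inside the interval with the largest gain, in KLF4 coding sequence on the minus strand at chr9:107487723-107487736. The other printed match lies in the KLF16 start-site interval, plus strand, chr19:1864910-1864923, outside annotated KLF16 exons.
KLF4, chr9:107487715-107487744: agccgcagCCGCCAGGTGGCGGgctgatgg
KLF16, chr19:1864902-1864931: cggagctgCCTCCAGGGGGCGGagctgctt
Both differ from the consensus at 1 base. The third match is in a coding interval of KLF10, where CTCF was 5.59 and 5.68 CPM in vehicle and 2.59 and 2.45 CPM in sorbitol. Its log2 fold change of -1.15 ± 0.58 did not pass (edgeR adjusted p = 0.12), and was -2.12 with total-count scaling (adjusted p = 0.0028). A match to these letters is a description of the sequence and does not show binding.

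The log2 fold changes of the other targets at the KLF4 exonic interval lay below that of CTCF; the difference from CTCF passed for YAP1, as given below, and not for RAD21 (RAD21 minus CTCF -1.95 ± 0.69, edgeR adjusted p = 0.2). RAD21 had 2.56 and 1.77 CPM in vehicle and 14.8 and 18.2 CPM in sorbitol, from 7 and 2 and then 15 and 16 counts. The groups did not overlap, and the log2 fold change was 2.80 ± 0.65 (edgeR adjusted p = 0.03); with DESeq2 the adjusted p was 0.13 and with total-count scaling 0.063. It was also past the threshold no longer without RAD21 sorbitol replicate 2 (adjusted p = 0.073) or RAD21 vehicle replicate 1 (adjusted p = 0.062). YAP1 had 3.08 and 2.17 CPM and then 7.15 and 10.2 CPM, with a log2 fold change of 1.67 ± 0.56 that did not pass (edgeR adjusted p = 0.084). H3K27ac fell from 12.9 and 17.7 CPM to 9.29 and 7.83 CPM, with a log2 fold change of -0.83 ± 0.22 (edgeR adjusted p = 0.0048). Without H3K27ac vehicle replicate 2 the adjusted p was 0.13, and with GC-corrected offsets 0.056.

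At the KLF4 start-site interval (chr9:107489523-107490588), CTCF had 7.29 and 5.91 CPM in vehicle and 15.5 and 15.7 CPM in sorbitol. The log2 fold change of 1.22 ± 0.34 (edgeR adjusted p = 0.0074) was 0.24 with total-count scaling and 0.39 with GC-corrected offsets, and passed with neither, nor without CTCF vehicle replicate 2. H3K27ac fell there from 19.2 and 29.6 CPM to 12.9 and 12.1 CPM (-0.97 ± 0.19, edgeR adjusted p = 0.00013). The third interval, outside the gene at chr9:107484136-107484440, lost CTCF. It had 39 and 18 counts in vehicle and 2 and 2 in sorbitol, and the vehicle to sorbitol ratio of scaled counts was 5.3 (95% exact interval for counting error 1.96 to 20.1; edgeR adjusted p = 0.015). Without CTCF vehicle replicate 1 or 2, or with GC-corrected offsets (adjusted p = 0.2), it did not pass. The KLF4 locus thus held the largest CTCF rise among the KLF intervals and 1 of the 2 CTCF falls.

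KLF2, a factor of quiescent endothelium that shares the MEK5 and ERK5 pathway with KLF4, passed for no target at its single interval (chr19:16324414-16325585). Its CTCF values were 8.85 and 5.68 CPM in vehicle and 8.28 and 21.1 CPM in sorbitol, so the groups overlapped (0.99 ± 0.40, edgeR adjusted p = 0.051). Its H3K27ac values were 15.6 and 19.1 CPM and then 13.1 and 16 CPM, which overlapped too (-0.26 ± 0.19, edgeR adjusted p = 0.32). With scaling to the weakest 25% of intervals, CTCF (1.24, adjusted p = 0.017) and H3K27ac (-0.53, adjusted p = 0.03) passed, and with total-count scaling YAP1 did, as lower (-1.15, adjusted p = 0.024). KLF5, a factor of dividing epithelium, also passed for no target at its start-site interval (chr13:73058662-73059993). H3K27ac was 86.2 and 82.7 CPM in vehicle and 84.1 and 88.7 CPM in sorbitol, a log2 fold change of 0.03 ± 0.08 (edgeR adjusted p = 0.81). With GC-corrected offsets this was a rise of 0.32 (adjusted p = 0.0036), and scaling to the weakest 25% of intervals made it a fall, -0.23 (adjusted p = 0.029). Under TMM, KLF5 was also the single gene of the 9 with a CTCF value below 0 at its start site, from 19.1 and 27.7 to 15.5 and 15.7 CPM (-0.56 ± 0.27, edgeR adjusted p = 0.1), and it passed as lower with total-count scaling (-1.54, adjusted p = 5.5e-05) and with GC-corrected offsets (-1.44, adjusted p = 0.00037). The 3 intervals inside KLF5 introns were tested for H3K27ac alone and gave log2 fold changes of 0.02, -0.29 and -0.22, none past the threshold.

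Among the SIN3A-binding members, KLF13, a factor of T cells that activates the chemokine gene CCL5, had the largest H3K27ac fall of the start-site intervals. At chr15:31325995-31327388 it went from 47.7 and 47.6 CPM to 16.8 and 14.2 CPM, a log2 fold change of -1.61 ± 0.14 (edgeR adjusted p = 7.1e-12). The neighbouring interval upstream (chr15:31325513-31325731) fell further, from 7.90 and 7.03 to 0.972 and 1.12 CPM (-2.82 ± 0.40, edgeR adjusted p = 1e-06). It was the largest H3K27ac fall of the 33, and rested on 9 counts in each sorbitol library. In the long KLF13 intron 2 intervals also fell, by 1.21 and 0.72 on the log2 scale, and 2 others there, at 0.61 and 0.19, did not pass. The intronic fall of 0.72 was lost with DESeq2 (adjusted p = 0.17).

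KLF13 also held the other CTCF loss. The interval at chr15:31435291-31435740, over a noncoding exon near the far end of the gene, had 50 and 38 CTCF counts in vehicle and 2 and 4 in sorbitol. The vehicle to sorbitol ratio of scaled counts was 5.46 (95% exact interval for counting error 2.41 to 15.3), and the log2 fold change was -2.44 ± 0.59 (edgeR adjusted p = 0.0024). It stayed past the threshold in all 14 alternatives tried for it. The KLF13 start site gave a CTCF value of 0.97 ± 0.35 (edgeR adjusted p = 0.029) that turned to -0.30 with GC-corrected offsets and -0.01 with total-count scaling. It did not pass with DESeq2 (adjusted p = 0.073), nor without sorbitol replicate 2 or either vehicle replicate of CTCF.

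KLF16, a factor that regulates dopamine receptor genes, fell in H3K27ac at 3 of its 4 intervals. At the start-site interval (chr19:1863572-1865174) the values were 69.8 and 75.2 CPM in vehicle and 29.0 and 29.1 CPM in sorbitol (-1.32 ± 0.10, edgeR adjusted p = 1.2e-12). An intronic interval (chr19:1855159-1855765) and an interval over an untranslated exon (chr19:1853334-1853779) fell by 0.82 and 1.21 on the log2 scale. CTCF was higher at all 3 under TMM, by 1.03 ± 0.17, 1.17 ± 0.27 and 0.78 ± 0.28. Under GC-corrected offsets these were -0.11, 0.47 and 0.16 and under total-count scaling 0.05, 0.19 and -0.20, none past the threshold. The last of them also failed to pass without CTCF sorbitol replicate 1 or without either vehicle replicate. At the untranslated exon YAP1 had 55 and 27 counts in vehicle and 5 and 0 in sorbitol, a log2 fold change of -2.04 ± 0.75 that did not pass (edgeR adjusted p = 0.12).

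KLF10 and KLF11, both early genes of the TGF-beta response that act as repressors, fell in H3K27ac at their start sites. KLF10 (chr8:102653760-102656610) went from 115 and 107 CPM to 60.5 and 57.8 CPM (-0.91 ± 0.08, edgeR adjusted p = 4.3e-11). Its CTCF value of 0.64 ± 0.20 (edgeR adjusted p = 0.014) turned to -0.32 with GC-corrected offsets and -0.35 with total-count scaling, and did not pass without CTCF sorbitol replicate 1 or without either vehicle replicate. KLF11 has a start region split over 3 intervals within 1 kb of its canonical start, and H3K27ac fell at all of them. The fall was -2.23 ± 0.35 at chr2:10042651-10042981 (edgeR adjusted p = 5e-06), from 8.70 and 8.66 to 2.16 and 1.49 CPM. It was -0.88 ± 0.30 at the start-site interval chr2:10043289-10043652 (edgeR adjusted p = 0.032), from 7.74 and 8.17 to 3.24 and 5.47 CPM; DESeq2 gave an adjusted p of 0.14 there, and the fall did not pass without sorbitol replicate 1 or either vehicle replicate of H3K27ac. CTCF at the start-site interval went from 2.17 and 5.20 to 14.5 and 8.34 CPM (1.69 ± 0.48, edgeR adjusted p = 0.0084), which did not pass with GC-corrected offsets (0.27) or total-count scaling (0.72), nor without CTCF sorbitol replicate 1 or vehicle replicate 1. At chr2:10043692-10044482 the fall was -1.32 ± 0.16 (edgeR adjusted p = 2.2e-08), from 35.1 and 31.6 to 13.4 and 13.3 CPM. CTCF at the interval downstream of the start was 8.07 and 9.22 CPM in vehicle and 32.6 and 26.0 CPM in sorbitol (1.77 ± 0.27, edgeR adjusted p = 3.1e-05), 0.78 with total-count scaling (adjusted p = 0.026) and 0.58 with GC-corrected offsets (adjusted p = 0.11).

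KLF9, a target gene of glucocorticoid and thyroid hormone receptors, had the highest summed H3K27ac of the 9 loci. The sum over its 5 intervals was 455 CPM ± 15.7 in vehicle and 250 CPM ± 0.717 in sorbitol. It was not scaled to interval width. Per kb of the start-site interval, KLF6 was above KLF9 in vehicle (75.2 against 71.8 CPM). The upstream interval (chr9:70418343-70421207, over ENSG00000289159, its centre at -5118 bases from the start) fell from 265 and 279 CPM to 113 and 107 CPM (-1.31 ± 0.06, edgeR adjusted p = 3.6e-18). The start-site interval (chr9:70412387-70414339) moved less, from 136 and 145 CPM to 107 and 115 CPM (-0.34 ± 0.07, edgeR adjusted p = 0.00049), and with GC-corrected offsets it did not pass (adjusted p = 0.058). An intronic interval next to it (chr9:70411888-70412290) fell from 29.2 and 27.3 to 14.3 and 13 CPM (-1.05 ± 0.16, edgeR adjusted p = 3.9e-06), while 1 at chr9:70411162-70411470 was 12.9 and 12.6 and then 13.6 and 13.5 CPM (0.09 ± 0.20, edgeR adjusted p = 0.78). CTCF at the start-site interval rose from 11.5 and 10.2 to 26.4 and 18.6 CPM (1.04 ± 0.29, edgeR adjusted p = 0.0062) under TMM, and was 0.06 with total-count scaling; it did not pass without CTCF sorbitol replicate 1 or vehicle replicate 2. At the upstream interval the CTCF value was 0.67 ± 0.21 (edgeR adjusted p = 0.013), and -0.31 with total-count scaling, and it did not pass without CTCF sorbitol replicate 2 or vehicle replicate 1.

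**Figure D4:**
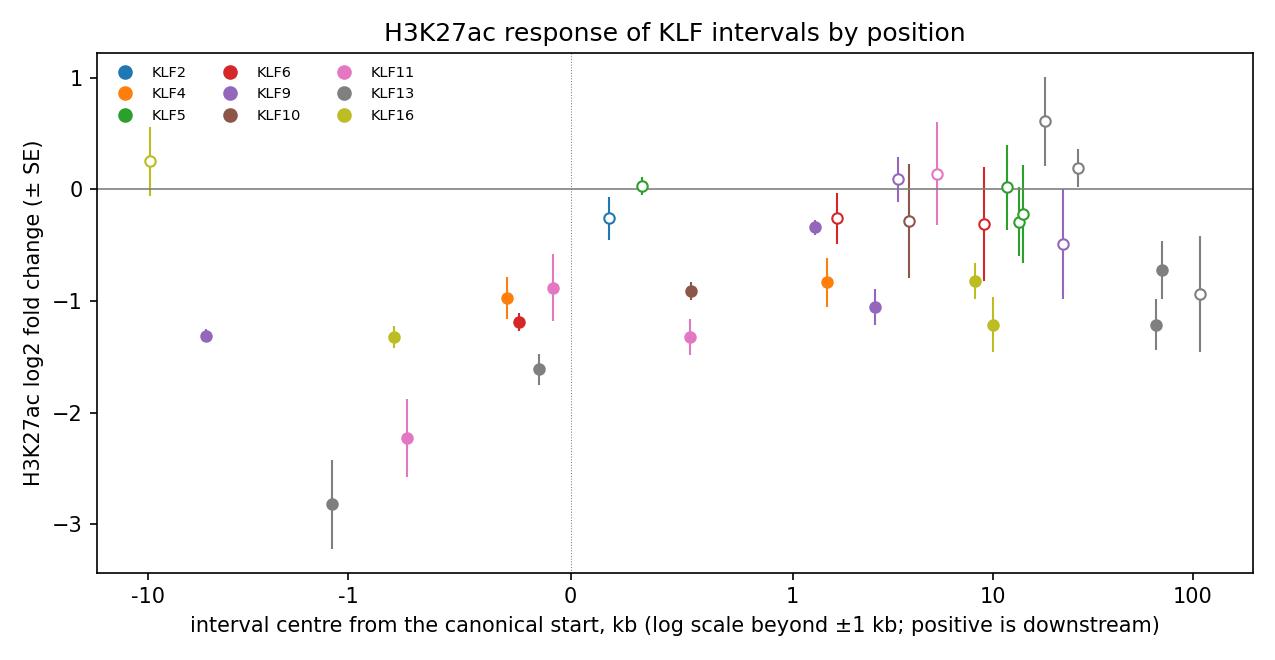
H3K27ac log2 fold change (± SE) of the 32 tested KLF intervals against the distance of the interval centre from the canonical start (kb, linear within 1 kb and logarithmic beyond), with filled points past an adjusted p of 0.05. Of the 17 falls, 8 are centred upstream and 9 downstream of the start, and the start-site values of KLF5 (0.03) and KLF2 (-0.26) are the 2 not past the threshold.

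The members were also counted by their distance from a start. Of the 15 intervals within 1 kb of any annotated start, 13 fell, with a median log2 fold change of -1.19. Over all tested intervals of that class 36.8% were called (26.9% lower, 9.94% higher), with a median of -0.13. Of the 17 tested intervals farther from a start, 4 fell, with a median of -0.28. Over all tested intervals of this class 13.5% were called (5.88% lower, 7.65% higher), with a median of 0.17. The difference between the classes was not tested.

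For CTCF, 20 of the 33 intervals were tested, 12 rose and 2 fell, against 19.5% higher and 20.7% lower over all 39261 tested intervals (40.2% called). The median log2 fold change of the 20 was 0.88, where that of all tested was -0.06. At the start sites 7 of 9 rose; over the start-site intervals of all protein-coding genes 38.7% were called, 32.7% higher and 5.98% lower, with a median of 0.56. The rises depended on the scaling and on correction for GC content. With GC-corrected offsets 2 rises were left, at KLF6 and in the KLF4 exonic interval, and 2 falls, at the far KLF13 interval and the KLF5 start site, where 31.2% of all tested intervals were called (13.9% higher, 17.2% lower). Without CTCF vehicle replicate 1 there were 9 calls in all and without vehicle replicate 2 there were 8, in place of 14. With total-count scaling there were 3 rises and 6 falls, where 59.0% of all were called (5.37% higher, 53.6% lower). The start-site intervals of the 9 genes are 63.4% to 79.9% G or C.

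RAD21 and YAP1 gave few calls. Both had few counts outside the dominant intervals defined in the processing section. The YAP1 libraries held 1.68 and 1.38 M such counts in vehicle and 0.542 and 0.398 M in sorbitol. For RAD21 these were 1.15 and 0.464 M in vehicle and 0.438 and 0.379 M in sorbitol. RAD21 rose in 2 of 13 tested intervals, those of KLF6 and KLF4 above, against 4.79% called over 17011 tested intervals (3.34% higher, 1.45% lower). DESeq2 called none of them, while 3 had an unadjusted p under 0.05; it called 2.15% of all tested intervals (2.0% higher, 0.153% lower). Without RAD21 sorbitol replicate 1 there were 4 calls and without sorbitol replicate 2 there was 1. YAP1 rose in 1 of 18, against 6.83% called over 22765 tested intervals (5.34% higher, 1.49% lower), so its share of 5.56% was near the background. With total-count scaling 11 of 18 YAP1 intervals were lower and none was higher, where 65.0% of all were called (63.5% lower, 1.48% higher). Over the start-site intervals of all protein-coding genes, RAD21 was called in 2.67% (2.41% higher, 0.254% lower) and YAP1 in 3.49% (2.07% higher, 1.42% lower). The other 8 YAP1 start-site values ran from -0.34 ± 0.29 at KLF9 to 0.70 ± 0.28 at KLF5, with edgeR adjusted p from 0.16 at KLF5 upward. Of the 33 intervals, 19 were called for at least 1 target, 12 for at least 2, 2 for at least 3 and 1, the KLF6 start site, for all 4.

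The responses of pairs of targets were compared as an interaction over 8 libraries. The difference of YAP1 and CTCF is given as YAP1 minus CTCF, a signed value and not a size of response. It passed as below 0 in 9 of 23 tested KLF intervals and as above 0 in none. Over all tested intervals 11.6% were called (7.97% lower, 3.59% higher). The median of the 23 was -1.09, against -0.31 over all tested intervals and -0.88 over protein-coding start-site intervals. At the KLF6 start site the difference (YAP1 minus CTCF) was -1.75 ± 0.34 (edgeR adjusted p = 0.00024), and at the KLF4 exonic interval -3.38 ± 0.53 (edgeR adjusted p = 4.3e-06). With GC-corrected offsets 1 difference passed as below 0, in the KLF4 exonic interval, and 1 as above 0, at the KLF5 start site (2.06, adjusted p = 0.00039). The KLF6 difference was then -0.78 (adjusted p = 0.16), while the KLF4 difference was -2.48 (adjusted p = 0.00089). The difference of H3K27ac and YAP1 (H3K27ac minus YAP1) passed as below 0 in 6 of 31 intervals and as above 0 in none, against 6.27% called (2.55% lower, 3.72% higher). KLF6 gave the lowest p of these, with a difference (H3K27ac minus YAP1) of -2.27 ± 0.21 (edgeR adjusted p = 5.6e-17); it was -1.05 with total-count scaling (adjusted p = 0.00013), under which 7 of the 31 KLF intervals were higher and 1 lower (34.6% of all tested intervals were then called, 34.1% higher and 0.544% lower). RAD21 and CTCF differed in 0 of 22 intervals in edgeR, against 0.83% called (0.704% lower, 0.127% higher), and 3 had an unadjusted p under 0.05. The KLF6 difference (RAD21 minus CTCF) was -1.60 ± 0.43 (edgeR adjusted p = 0.067).

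Levels per kb of interval allow the genes to be set side by side. In vehicle, H3K27ac per kb was 75.2 ± 1.25 CPM at KLF6, then 71.8 ± 3.31 at KLF9, 63.4 ± 1.86 at KLF5, 45.2 ± 2.39 at KLF16, 38.9 ± 2.11 at KLF10 and 34.2 ± 0.0688 at KLF13. KLF4 with 22.9 ± 6.90 and KLF11 with 21.9 ± 0.85 could not be separated, and KLF2 was lowest with 14.8 ± 2.11. The place of KLF11 depends on how its split start region was cut. Its start-site interval is 364 bases wide, and the intervals upstream and downstream of it held 26.2 and 42.2 CPM per kb. In sorbitol, KLF5 led with 64.9 ± 2.44, KLF9 followed with 56.9 ± 2.96, and KLF6 came after them with 33.0 ± 0.843. KLF2, KLF11, KLF4 and KLF13 lay between 12.4 and 11.1 CPM per kb and each overlapped the next. KLF13, in the middle of the order with vehicle, was thus among the lowest with sorbitol, not separable from KLF4.

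The order for CTCF changed more. In vehicle KLF16 led with 22.3 ± 0.819 CPM per kb, KLF5 followed with 17.6 ± 4.56, and KLF6 was last with 5.20 ± 3.38, not separable from KLF13, KLF9, KLF4 and KLF2 in neighbouring places. In sorbitol KLF16 with 45.8 ± 10.6 and KLF6 with 44.8 ± 3.05 could not be separated. KLF13 was last with 10.6 ± 0.879, not separable from KLF9. For YAP1, KLF11 with 26.5 ± 4.01 and KLF16 with 23.5 ± 2.17 led in vehicle, and KLF6 led in sorbitol with 43.3 ± 2.34, above KLF11 with 27.6 ± 13.6. For RAD21, KLF5 had the highest vehicle level with 28.4 ± 8.25, overlapping KLF16 with 20.6 ± 5.68. KLF6 had the highest RAD21 sorbitol level with 37.4 ± 3.22, overlapping KLF16 with 33.7 ± 3.61.

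The 300-base RefSeq promoters (250 before to 50 after the start) were searched for 6 motifs on both strands; 10 promoter entries of 8 members were in the table. A cyclic AMP response element, TGACGTCA, was found in a KLF11 promoter at chr2:10044045-10044052, 176 bases before the RefSeq start and inside the interval where H3K27ac fell by 1.32 on the log2 scale. This palindrome reads the same on both strands, and 1.84% of all 34796 promoters hold it. That RefSeq start lies 671 bases downstream of the canonical start used above, so the element is downstream of the canonical start. The CACCC box GGGTGGGG, AP-1 site TGANTCA, TEAD site GGAATG, SRF CArG box and NFAT5 tonicity element were in none of the member promoters, and in 11.1%, 7.73%, 14%, 1.3% and 5.13% of all promoters.

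The genes whose start sites responded most like KLF6 were ID4, an inhibitor of helix-loop-helix factors, FAM117A, STMN1, the microtubule regulator stathmin, OAT, a mitochondrial aminotransferase, and NXF1, the mRNA export receptor. Likeness was the Euclidean distance over the 4 log2 fold changes among 8829 protein-coding genes tested for all targets. It was 0.319 for ID4, with values of 2.74 in CTCF, 1.19 in RAD21, 1.31 in YAP1 and -1.22 in H3K27ac, and 0.326 for FAM117A, 0.364 for STMN1, 0.397 for OAT and 0.402 for NXF1. The STMN1 interval is shared with MIR3917.

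Related genes were counted at their own start-site intervals, beside the shares over all protein-coding start sites given above: CTCF 32.7% higher and 5.98% lower, H3K27ac 31.6% lower and 13.4% higher, RAD21 2.67% and YAP1 3.49% called. Of the other KLF and SP genes, 14 of 17 had such an interval. CTCF rose in 5 of 12 tested, at KLF7 (1.52 ± 0.22), SP1 (0.86 ± 0.16), SP2, SP6 and KLF3, and H3K27ac fell in 6 of 14, at SP1 (-0.76 ± 0.08), KLF7 (-0.73 ± 0.08), KLF12 (-0.71 ± 0.06), SP4, KLF3 and SP2. In edgeR, RAD21 changed in 0 of 7 and YAP1 in 0 of 12, with 1 and 0 at an unadjusted p under 0.05. These counts were 41.7% for CTCF, all rises, and 42.9% for H3K27ac, all falls. Over all protein-coding start sites 32.7% rose in CTCF and 31.6% fell in H3K27ac. Called in either direction were 38.7% and 45.0%, near the shares of this list. The differences were not tested. KLF3 and KLF12 are repressors that bind CtBP, and SP1 is the founding GC-box factor.

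The 9 upstream regulators split in H3K27ac. It rose at MAP2K5 (0.66 ± 0.09), MEF2C (0.59 ± 0.13) and SMAD4 (0.38 ± 0.10) and fell at SMAD2 (-0.85 ± 0.11), MAPK7 (-0.52 ± 0.10), MEF2D (-0.48 ± 0.07) and NR3C1, the glucocorticoid receptor (-0.18 ± 0.06). MAP2K5 and MAPK7 encode MEK5 and ERK5, successive kinases of the pathway that induces KLF2 and KLF4, so their start sites moved in opposite directions. H3K27ac was thus called in 77.8% of them, against 45.0% over all protein-coding start sites. CTCF rose at 5 of the 9, against 32.7% higher over all. RAD21 changed in 0 of 7 (2.67% over all) and YAP1 in 0 of 9 (3.49% over all) in edgeR, with 1 and 0 at an unadjusted p under 0.05.

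Of the cofactor genes, 7 had a start-site interval and H3K27ac fell at 5: CTBP1 (-1.44 ± 0.17), SIN3A (-1.27 ± 0.13), HDAC1 (-0.98 ± 0.12), CREBBP (-0.49 ± 0.11) and EP300 (-0.24 ± 0.07), against 31.6% lower over all protein-coding start sites. CTCF rose at 3 of 7, SIN3A (1.48 ± 0.19), HDAC1 (1.45 ± 0.28) and EP300 (1.22 ± 0.22). This was 42.9%, against 32.7% higher over all, and near the 38.7% called in either direction. RAD21 changed in 0 of 6 (2.67% over all) and YAP1 in 0 of 7 (3.49% over all) in edgeR, with 3 and 1 at an unadjusted p under 0.05. Of the 4 ubiquitin ligase genes, FBXW7, whose product targets KLF5 for degradation, rose in H3K27ac (0.62 ± 0.08), and WWP1, SMURF1 and BTRC did not pass. The CTCF rises in these lists are relative to other intervals, as above.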

How the data were processed

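CUT&Tag libraries of HEK293 eGFP-YAP cells were analysed from the deposited table of raw counts per peak interval, which the authors had not scaled between libraries. Per the submitters' processing notes, BWA 0.7.17, MACS2 2.2.6 and bedtools 2.31.1 were used with hg38; their settings, and whether peaks were called on pooled libraries, are not given in the sources used here. All 74404 intervals fitted hg38 chromosome lengths, which was checked. No sample column was left unmapped.

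Intervals were joined to GENCODE release 44. The test was edgeR 4.0.16 in R 4.3.3 (quasi-likelihood, robust, two-sided), per target on its 4 libraries, with filterByExpr at 10 counts, TMM over tested intervals, and Benjamini-Hochberg adjustment over all of them; calls are at adjusted p under 0.05. The SE is the log2 fold change over the root of F. CPM is per 1e6 of effective library size; library totals were 1.19 to 8.84 M counts, and counting intervals cover counting error only. Target differences were interactions over 8 libraries. The edgeR step was also run on simulated counts, and the outcome is not given here. Changes were placed there only in intervals above a minimum mean count, so that run does not cover intervals with few counts.

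Named intervals were all start-site intervals, for each target the 2 largest rises and falls among calls whose groups do not overlap, and up to 10 intervals called for 2 or more targets. Other values are described as ranges, or were named for their place in a gene. Members and lists were chosen with earlier results of these data known. Alternatives were DESeq2 1.42.0 and its size factors, total-count scaling with and without dominant intervals, and scaling to the weakest 25%. Dominant intervals held over 0.1% of a library, or were mitochondrial, unplaced or over the YAP1 gene. Other alternatives were no filter, a single fit on 16 libraries, and offsets corrected for GC content (lowess span 0.3). A block by replicate number, alone and with those offsets, leaving out each replicate, and a 2 kb member window were also used.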

Additional observations from a re-analysis of the deposited data

Results flagged for a closer look

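The responses of CTCF and YAP1 to sorbitol differed by the interaction test in 9 KLF intervals, with YAP1 below CTCF in each. The difference (YAP1 minus CTCF, log2) was -3.38 at the KLF4 exonic interval, -2.99 at the untranslated exon interval of KLF16, -1.87 at the KLF11 start site, -1.75 at the KLF6 start site and -1.58 at the KLF11 interval just downstream. It was -1.56 at the KLF9 start site, -1.09 both at the interval upstream of KLF9 and at the KLF16 start site, and -0.94 at the KLF10 start site. The median over all tested intervals was -0.31. Over protein-coding start-site intervals it was -0.88, close to the KLF10 value. With GC-corrected offsets 8 of the 9 did not pass, the KLF4 exonic value did (-2.48, adjusted p = 0.00089), and the KLF5 start site passed in the other direction (2.06, adjusted p = 0.00039). The values at the KLF11, KLF10, KLF9 and KLF16 start sites did not pass without CTCF sorbitol replicate 1, nor that upstream of KLF9 without CTCF sorbitol replicate 2. The KLF11 value was also lost without CTCF vehicle replicate 1, YAP1 sorbitol replicate 1 or either YAP1 vehicle replicate, the KLF10 value without CTCF vehicle replicate 2, YAP1 sorbitol replicate 2 or YAP1 vehicle replicate 1, and the KLF9 start-site value without YAP1 vehicle replicate 2.

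The responses of YAP1 and H3K27ac differed in 6 KLF intervals, with H3K27ac below YAP1 in each. The difference (H3K27ac minus YAP1, log2) was -2.27 at the KLF6 start site and -2.14 at the KLF4 exonic interval. It was -1.32 at the KLF11 interval downstream of the start, -1.14 at the KLF13 start site, -1.08 at the KLF16 start site and -0.72 upstream of KLF9. The median over all tested intervals was 0.21. With total-count scaling, of these 6 only the KLF6 value passed (-1.05, adjusted p = 0.00013), and 7 KLF intervals passed as above 0. The KLF4 exonic value was not past the threshold without H3K27ac vehicle replicate 2 (edgeR adjusted p = 0.072) or YAP1 sorbitol replicate 2 (edgeR adjusted p = 0.082). The KLF13 value was lost without sorbitol replicate 2 or either vehicle replicate of H3K27ac, or replicate 1 of either YAP1 group. The KLF11 value was lost without YAP1 sorbitol replicate 2, and that upstream of KLF9 without H3K27ac sorbitol or vehicle replicate 2 or YAP1 sorbitol replicate 1.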

How the results depend on the processing

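Beside 14 CTCF calls, there were 4 with GC-corrected offsets, 4 with the replicate block added to these, and 9 with total-count scaling; leaving out a library gave 8 to 12. RAD21 had 2 calls, and 0 with DESeq2, the replicate block, the block with GC-corrected offsets and total-count scaling, 1 with GC-corrected offsets, 4 in a single fit on 16 libraries, and 1 to 4 without a library. YAP1 had 1 call, 2 with no filter, 3 in the single fit, 11 with total-count scaling, and 1 to 2 without a library. H3K27ac had 17, 10 in the single fit, and 14 to 16 without a library. Beside 9 CTCF and YAP1 differences, all below 0, there were 4 with DESeq2 size factors, 3 below 0 and 1 above. With GC-corrected offsets there were 2, with or without the block, 1 below 0 and 1 above. Beside 6 YAP1 and H3K27ac differences, all below 0, there were 5 with GC-corrected offsets, all below 0. Total-count scaling gave 8 of these, 7 above 0 and 1 below. The CTCF and RAD21 count of 0 was 1 with no filter, the block or scaling to the weakest 25% of intervals (0 to 1 without a library). The ratio of highest to lowest CPM per kb in vehicle was 4.28 (CTCF), 3.77 (RAD21), 3.75 (YAP1) and 5.07 (H3K27ac), and 3.89 to 7.72, 3.74 to 4.88, 3.86 to 4.32 and 4.55 to 5.70 from single libraries. The cause was not tested.

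A value counts as reversed where its sign turned and it passed in at least 1 of the fits compared. Sign changes of values that passed in neither are not listed. The list covers the named intervals, and differences between targets only where they passed under TMM. Outside it, total-count scaling turned H3K27ac minus YAP1 from -0.31 to 0.91 at the KLF5 start site (edgeR adjusted p = 0.008). At the KLF10 start site it went from -0.43 to 0.79 (edgeR adjusted p = 0.0055). Reversed under total-count scaling were the CTCF log2 values of KLF10 (-0.35), KLF9 upstream (-0.31), the KLF16 untranslated exon (-0.20) and KLF13 (-0.01), the YAP1 values of the KLF16 intron (-1.14) and start (-1.31), KLF2 (-1.15), and KLF11 start (-1.43) and downstream (-1.07), and the H3K27ac minus YAP1 differences of KLF13 (0.07), KLF16 (0.14) and KLF9 upstream (0.50). GC-corrected offsets reversed CTCF at KLF10 (-0.32), KLF13 (-0.30) and KLF16 (-0.11) and YAP1 minus CTCF at KLF16 and KLF10 (0.09 each); with the block these were -0.31, -0.28, -0.11, 0.09 and 0.08. Scaling to the weakest 25% of intervals reversed H3K27ac at KLF5 (-0.23). Of the other single-interval values over these settings, 568 kept their side of the threshold, 88 lost and 21 gained a call.

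Replicates of the same number did not deviate together: the correlation of deviations was -0.0086 (CTCF), -0.0048 (RAD21), 0.0054 (YAP1) and -0.0054 (H3K27ac), and the samples share only a number. RAD21, the shallowest target, left 20 of 33 intervals untested.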
